A study of Mus musculus with 6 samples.

Results

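The imprinted Dlk1-Dio3 domain of mouse chromosome 12 carries a long run of miRNA genes, and their probes were read on 1-colour miRNA arrays of bone marrow stem and progenitor cells. Members were all mouse-named probes whose miRNA number belongs to a list of 48 cluster numbers, whatever their letter, arm or suffix. The rule found 100 probes for 50 miRNAs, out of 1083 mouse-named probes and 2990 rows in the table. All animals were female C57BL/6 littermates aged 10 weeks with both Raptor alleles flanked by loxP sites, a genotype the labels write as Rprtf/f. The cKO group (n = 3) carried the Mx1-Cre transgene and the Ctrl group (n = 3) did not. Both groups received 7 intraperitoneal injections of 400 µg polyinosinic:polycytidylic acid (pIpC), one every other day. Lin-cKit+ bone marrow cells, enriched with beads and abbreviated HSPCs, were taken 10 days after the last injection. Raptor is the subunit that defines the kinase complex mTORC1. Mx1-Cre is switched on by interferon and is not restricted to blood cells, and the Raptor deletion itself was not measured on these arrays. The comparison asked whether loss of mTORC1 in HSPCs alters miRNA levels.

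In an imprinted domain the copy inherited from one parent is used and the other is kept silent. On the maternally inherited chromosome 12 the non-coding genes Meg3, Rian and Mirg and the miRNAs among them are transcribed, while the paternal copy expresses the protein-coding genes Dlk1, Rtl1 and Dio3. The miRNAs are best known from placenta, embryo and brain. In mouse hematopoietic stem cells the maternal transcripts of this locus have been linked to restraint of PI3K-mTOR signalling. A miRNA hairpin is cut into a 5p and a 3p arm, and bases 2 to 8 of the arm, its seed, choose the targets.

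All 50 miRNAs lie between positions 109563692 and 109743795 of chromosome 12 in RefSeq's annotation of GRCm38.p6, a span of 180.104 kb. By position, miR-770 lies inside Meg3, 10 miRNAs lie inside the span of Rtl1, miR-341 and miR-370 lie inside Rian, and 8 lie inside Mirg. The remaining miRNAs lie between these genes. A hairpin sequence was found in the RefSeq table for 48 of the 50, each on the + strand. These hairpins are shown first because probes bearing their names include several of the highest signals, the 1 probe past the test and a probe just outside it. The link is by name alone. Mature arms are in capitals (coordinates are GRCm38.p6, + strand).
miR-543, chr12:109717258-109717333: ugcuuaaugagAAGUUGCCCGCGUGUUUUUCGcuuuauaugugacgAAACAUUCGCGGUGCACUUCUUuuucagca
miR-494, chr12:109715318-109715402: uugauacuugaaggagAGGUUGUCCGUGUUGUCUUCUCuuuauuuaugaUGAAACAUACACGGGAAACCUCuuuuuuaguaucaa
miR-323, chr12:109712508-109712593: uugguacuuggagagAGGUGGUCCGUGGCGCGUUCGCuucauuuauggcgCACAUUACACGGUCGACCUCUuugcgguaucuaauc
miR-341, chr12:109611500-109611595: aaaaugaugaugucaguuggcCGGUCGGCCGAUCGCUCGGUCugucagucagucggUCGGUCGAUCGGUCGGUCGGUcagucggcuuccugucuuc
miR-412, chr12:109743289-109743368: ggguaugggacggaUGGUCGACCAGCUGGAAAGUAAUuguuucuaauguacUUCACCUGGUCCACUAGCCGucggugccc
miR-882, chr12:109682197-109682273: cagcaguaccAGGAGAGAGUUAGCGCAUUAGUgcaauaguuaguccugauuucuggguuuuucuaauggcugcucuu

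Several cluster members share a seed, and the mature arms below show 3 of those shared pairs, with the seed in capitals. miR-494 and miR-410 share a 5p seed, as do miR-379 and miR-1193. In all, 7 seeds were each found in 2 of the 94 mature sequences matched. An array name without an arm mark does not say which arm the probe covers, and the probe sequences were not used here.
miR-494-5p: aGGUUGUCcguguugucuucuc
miR-410-5p: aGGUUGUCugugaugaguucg
miR-379-5p: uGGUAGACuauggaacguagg
miR-1193-5p: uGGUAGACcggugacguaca
miR-376b-5p: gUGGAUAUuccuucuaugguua
miR-376c-5p: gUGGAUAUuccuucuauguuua

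Values are the deposited relative intensities, which are linear, and differences are log2 of cKO minus Ctrl. Probes differ in how strongly they bind and label, so each is read against background and against itself in the other group, not against another probe as an amount. Background on an array was the 95th percentile of its 38 random-sequence (Randomer) probes, between 0.377 and 0.406 on cKO replicates 3 and 2, 0.431 on cKO replicate 1, and between 0.423 and 0.463 on the Ctrl arrays. The brightest cluster probe reached 33.7% to 69.8% of the highest value on its array, taken as the scanner limit, so none was saturated. As a check of the cell label, 6 of 9 hematopoietic marker probes were above background on all 6 arrays, miR-223 among them. The share over all mouse probes was 40.6%, so the count is a weak check. The summed intensity of the 9 hematopoietic probes was 30.5 to 51.8 in cKO and 22.1 to 23.3 in Ctrl. Most of it was miR-223, at 27.7 ± 9.29 in cKO and 15.9 ± 0.720 in Ctrl (mean ± SD over 3 arrays, as for every group mean). The defining progenitor marker miR-126 was not above on all arrays. Its miR-126-3p probe averaged 0.380 ± 0.0609 in cKO and 0.381 ± 0.0214 in Ctrl, above background on 1 array, as was miR-126-5p. The miR-142-3p probe (0.441 ± 0.0229 in cKO and 0.425 ± 0.0191 in Ctrl) was above on 2 arrays, while miR-142-5p was above on all 6. Of 6 stromal probes 2 were above on all arrays, with sums of 3.32 to 4.62 in cKO and 2.77 to 3.47 in Ctrl. None of 2 erythroid and 6 epithelial probes, and 1 of 6 muscle, liver and brain probes, were above on all arrays, and the epithelial sums were 2.44 to 2.66 in cKO and 2.11 to 2.43 in Ctrl. The markers that passed the test were miR-155 (3.04 ± 0.489 and 1.57 ± 0.149), miR-146a (2.24 ± 0.499 and 0.779 ± 0.0686) and epithelial miR-203 (0.773 ± 0.195 and 0.455 ± 0.0120), all higher in cKO (limma adjusted p = 0.0455, 0.00154 and 0.0257). The part of these other cells in the results was not tested.

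Few cluster probes exceeded background throughout. Of the 100 probes 23 were above background on all 6 arrays, 31 on some and 46 on none, while 40.6% of all mouse probes were above on all 6. On single arrays 46, 44 and 42 cluster probes exceeded background in cKO and 36, 35 and 27 in Ctrl. The share over all mouse probes was also higher in cKO, at 58.4% to 63.8% against 46.4% to 52.7%. These counts depend on each array's own background level, which was lowest on cKO replicates 3 and 2. The median intensity of the cluster probes was 0.410, 0.378 and 0.359 in cKO, in replicate order. In Ctrl it was 0.370, 0.421 and 0.378, so the higher counts in cKO are not a higher median intensity.

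The share of probes above background on all arrays differed along the cluster, with no test of the difference. Of the 72 probes in the stretch from miR-379 to miR-410, next to and inside Mirg, 20 were above background on all arrays, 18 on some and 34 on none. On the Meg3 side (miR-770 to miR-665) 1 of 12 probes, miR-673-3p, was above on all arrays, 9 on some and 2 on none. This group was set by name, and its miRNAs other than miR-770 also lie inside the span of Rtl1. Around Rian (miR-341, miR-370 and miR-882) 2 of 6 were above on all arrays, 2 on some and 2 on none. None of the 10 probes of the miRNAs antisense to Rtl1 (miR-431, miR-433, miR-127, miR-434 and miR-136) was above on all arrays, and 8 were above on none. These miRNAs pair fully with the Rtl1 transcript and direct its cleavage in mouse placenta and embryo. Their relative intensities on single arrays ran from 0.232 to 0.533.

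By arm, 14 of 40 probes without an arm mark were above background on all arrays, against 50.2% of all mouse probes of that kind. The counts were 1 of 13 star probes, 1 of 10 probes named 5p and 1 of 10 named 3p, and 6 of 27 probes whose name ends in -P, a mark the labels do not define. Among all mouse probes the shares were 22.5% for star, 28.4% for 5p and for 3p, and 39.6% for -P. In each class the cluster's share was thus below that of all mouse probes, with no test of the difference.

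**Figure D1:**
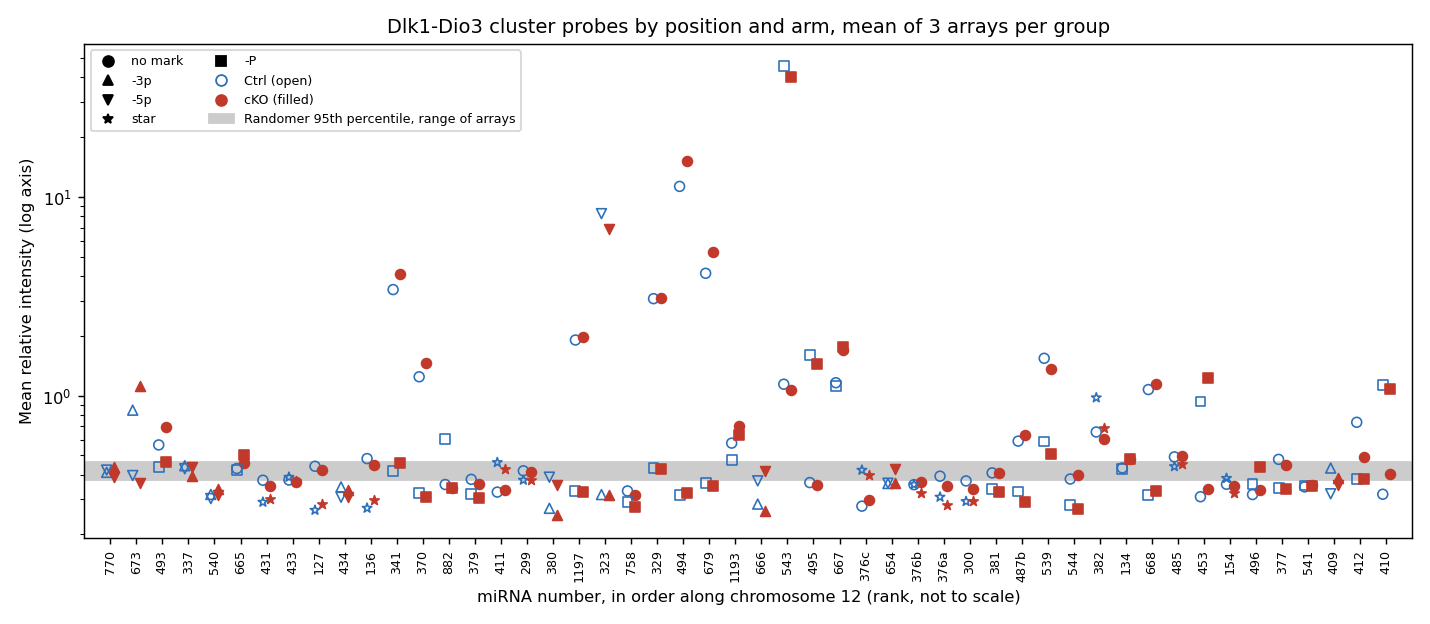
Mean relative intensity (log axis) of each cluster probe over the 3 Ctrl arrays (open) and the 3 cKO arrays (filled), in order along chromosome 12, with marker shapes for the arm or suffix. The grey band is the range of the Randomer 95th percentile over the 6 arrays. Most probes lie in or under the band, and the highest mean is that of miR-543-P, at 40.2 in cKO and 45.3 in Ctrl.

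Probes of one hairpin often disagreed. For 10 of the 50 miRNAs one probe was above background on all 6 arrays and another on none, for example miR-494 and miR-494-P, or miR-323-5p and miR-323-3p. For 4 miRNAs (miR-543, miR-667, miR-539 and miR-382) every probe was above on all arrays. For 11 miRNAs every probe was on none, among them miR-379, miR-154, miR-300, miR-376a and miR-376b.

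The strongest cluster signal came from miR-543-P. Its relative intensity was 51.9, 45.2 and 23.5 on the cKO arrays and 39.8, 46.8 and 49.4 on the Ctrl arrays, in replicate order. The groups overlapped, with cKO replicate 3 lowest (log2 difference -0.25 ± 0.29 SE). The other miR-543 probe was far dimmer, at 1.07 ± 0.355 in cKO and 1.14 ± 0.0388 in Ctrl.

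miR-494, which lies next to miR-679 in the stretch from miR-379 to miR-410, read 20.9, 14.9 and 9.79 in cKO and 11.5, 15.8 and 6.52 in Ctrl. The groups overlapped and the difference was 0.45 ± 0.38, which turned negative under quantile normalization (-0.03) and under scaling to snoRNA and GAPDH probes (-0.12). miR-323-5p read 7.55, 7.12 and 6.10 in cKO and 7.52, 5.57 and 11.6 in Ctrl. Its groups also overlapped, and the highest value was Ctrl replicate 3 (-0.19 ± 0.33).

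miR-679 read 5.81, 6.22 and 3.86 in cKO and 4.47, 3.58 and 4.32 in Ctrl, a difference of 0.34 ± 0.30 that was -0.25 under quantile normalization and -0.24 under snoRNA and GAPDH scaling. miR-341, a rodent miRNA in Rian whose 2 arms are built of repeats of one short motif, read 4.40, 4.22 and 3.59 in cKO and 3.00, 2.96 and 4.28 in Ctrl (0.27 ± 0.29; -0.29 and -0.31 under those scalings). For both miRNAs the groups overlapped. miR-329 differed by 0.01 ± 0.30 (-0.48 and -0.56 under those scalings), with group means of 3.10 ± 0.659 in cKO and 3.07 ± 0.670 in Ctrl, and miR-1197 read 2.92, 2.25 and 0.716 in cKO and 2.00, 1.84 and 1.87 in Ctrl. cKO replicate 3 was by far the lowest array of miR-1197, whose difference was -0.18 ± 0.42. miR-495-P (1.43 ± 0.422 and 1.60 ± 0.203), miR-539 (1.35 ± 0.411 and 1.54 ± 0.0309) and miR-370 (1.45 ± 0.185 and 1.24 ± 0.276, each cKO then Ctrl) were also above background on every array with overlapping groups. The difference of miR-370, 0.24 ± 0.24, was -0.19 and -0.33 under those scalings.

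Cluster members well known from other tissues gave low or uneven signals. miR-127, whose target Rtl1 is needed for placental growth, read 0.471, 0.452 and 0.347 in cKO and 0.417, 0.498 and 0.408 in Ctrl. It exceeded background on 2 cKO arrays and 1 Ctrl array, and its groups overlapped. miR-379, at the start of the long stretch of hairpins, was above background on no array (0.359 ± 0.0352 in cKO and 0.379 ± 0.0236 in Ctrl), nor was miR-379-P. miR-410, at its end, read 0.516, 0.363 and 0.337 in cKO and 0.295, 0.343 and 0.318 in Ctrl, and was above background on cKO replicate 1 alone. Its other probe, miR-410-P, was above on all arrays at 1.08 ± 0.249 and 1.13 ± 0.0722. The 6 probes of miR-376a, miR-376b and miR-376c, miRNAs whose seed is edited from A to I in brain, ran from 0.252 to 0.450 on single arrays. Of these 5 were above background on no array, and their differences ran from -0.18 to 0.10. miR-134, known in neurons for limiting dendritic spine size, was above background on 3 arrays (0.477 ± 0.0932 and 0.432 ± 0.0155).

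Few cluster probes passed the test for a difference between cKO and Ctrl. With limma over all 1083 mouse probes (adjusted p under 0.05), 0 of the 100 cluster probes rose, 1 fell and 99 did not pass. Over all mouse probes 6.46% rose and 0.369% fell. At an unadjusted limma p under 0.05, 3 cluster probes were higher and 4 lower, against 14.6% and 2.12% of all mouse probes. All cKO arrays lay above all Ctrl arrays for 4 cluster probes and below them for 4, against 15.8% and 3.88% of all mouse probes. The median difference over the cluster was -0.006 and the mean 0.010, with 46 values positive and 54 negative, while the median over all mouse probes was 0.041 and the mean 0.153. Since 46 cluster probes were above background on no array, these counts and medians include many probes measured only at background. In bulk RNA, fewer cells of a type and less RNA per cell cannot be told apart.

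**Figure D2:**
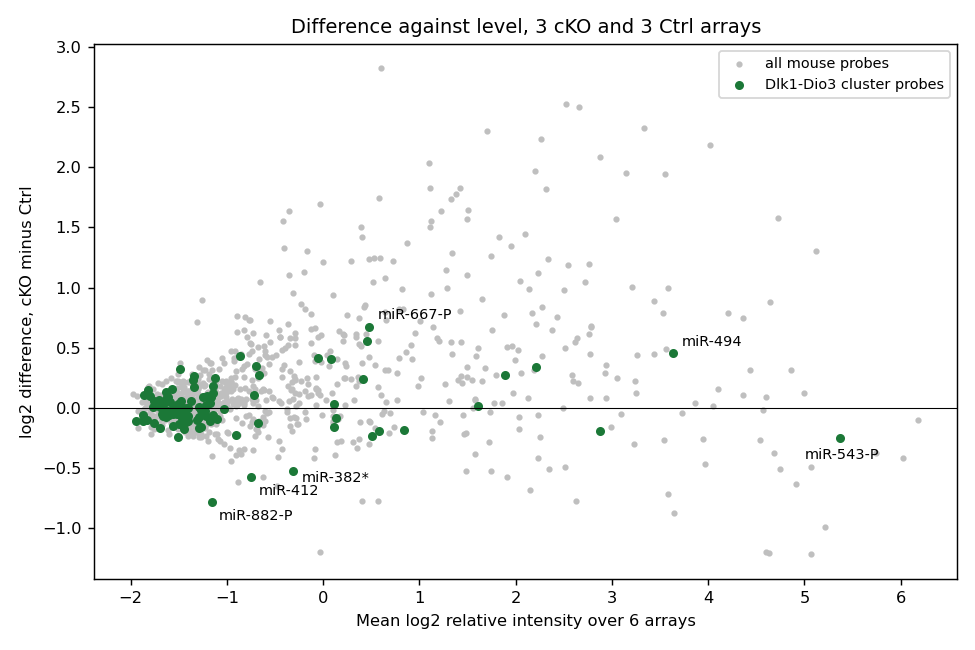
Log2 difference (cKO minus Ctrl) against mean log2 relative intensity over the 6 arrays for all 1083 mouse probes (grey) and the 100 cluster probes (green). The cluster probes lie between -0.78 and 0.67, while the grey points reach 2.82.

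The probe that fell was miR-882-P. miR-882 lies in the gap between Rian and miR-379, apart from the dense stretch. The probe read 0.342, 0.300 and 0.388 in cKO and 0.415, 0.774 and 0.630 in Ctrl, so the groups did not overlap. The log2 difference was -0.78 ± 0.19 SE (limma adjusted p = 0.0257). The same-numbered pairs differed by -0.28, -1.37 and -0.70, and their shared sign follows from the lack of overlap. The values sat near background: 1 cKO array and 2 Ctrl arrays exceeded it. The call was lost when values were floored at background (limma adjusted p = 0.0543), without an intensity trend (0.110), and without cKO replicate 2 (0.158), Ctrl replicate 2 (0.102) or Ctrl replicate 3 (0.0972). The miR-882 probe, whose name is exactly that of the mature arm in the hairpin above, was above background on no array (0.344 ± 0.0306 and 0.357 ± 0.0180).

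miR-412, in the last kilobases of the cluster inside Mirg, missed the threshold. It read 0.549, 0.526 and 0.400 in cKO and 0.806, 0.796 and 0.600 in Ctrl, above background on every array and with no overlap. The difference was -0.58 ± 0.18 (limma adjusted p = 0.0783), and the same-numbered pairs differed by -0.55, -0.60 and -0.58. With the replicate number as a block it passed (limma adjusted p = 0.0196), which made 2 of 100 cluster probes lower against 0.462% of all mouse probes in that fit. It also passed with median centring or quantile normalization, which each called 2 cluster probes lower against 0.369% and 0.739% of all mouse probes, and without Ctrl replicate 3. With snoRNA and GAPDH scaling it passed among 39 cluster probes called lower, against 28.6% of all mouse probes. Its partner miR-412-P was above background on no array and differed by -0.004.

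The largest positive difference among the cluster probes was that of miR-667-P. It read 1.89, 1.79 and 1.61 in cKO and 1.03, 1.38 and 0.938 in Ctrl. The groups did not overlap, and the difference was 0.67 ± 0.24 (limma adjusted p = 0.129), with pairs at 0.87, 0.38 and 0.78. The probe passed without cKO replicate 3 (limma adjusted p = 0.0257) and with a floor at 1 (0.0338; 1 of 18 cluster probes tested, against 21.9% of all mouse probes), and its difference was 0.10 with snoRNA and GAPDH scaling. The miR-667 probe differed by 0.56 ± 0.27 (-0.02 with that scaling), with values of 1.37, 1.53 and 2.21 in cKO and 1.05, 1.53 and 0.898 in Ctrl that overlapped.

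Among the other probes above background on all arrays, miR-673-3p differed by 0.41 ± 0.23 and miR-453-P by 0.41 ± 0.22, both with overlapping groups. All 3 same-numbered pairs were higher in cKO for each, by 0.77, 0.18 and 0.29 for miR-673-3p and by 0.40, 0.29 and 0.54 for miR-453-P. With snoRNA and GAPDH scaling they differed by -0.16 and -0.17. On the negative side miR-382* differed by -0.53 ± 0.24 and miR-539-P by -0.22 ± 0.20. miR-382* read 0.837, 0.755 and 0.473 in cKO and 0.762, 1.06 and 1.10 in Ctrl, so cKO replicate 1 lay inside the Ctrl range. None of these 4 passed, with limma adjusted p from 0.277 to 0.707. The cKO and Ctrl arrays also did not overlap for miR-1193-P (0.43 ± 0.14, limma adjusted p = 0.0933, and the 1 cluster probe called higher with Randomer scaling, against 7.29% of all mouse probes), miR-665-P (0.25 ± 0.13) and miR-134-P (0.18 ± 0.12), all higher in cKO, and for miR-154* (-0.24 ± 0.10) and miR-376a* (-0.13 ± 0.08), both on no array above background.

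**Figure D3:**
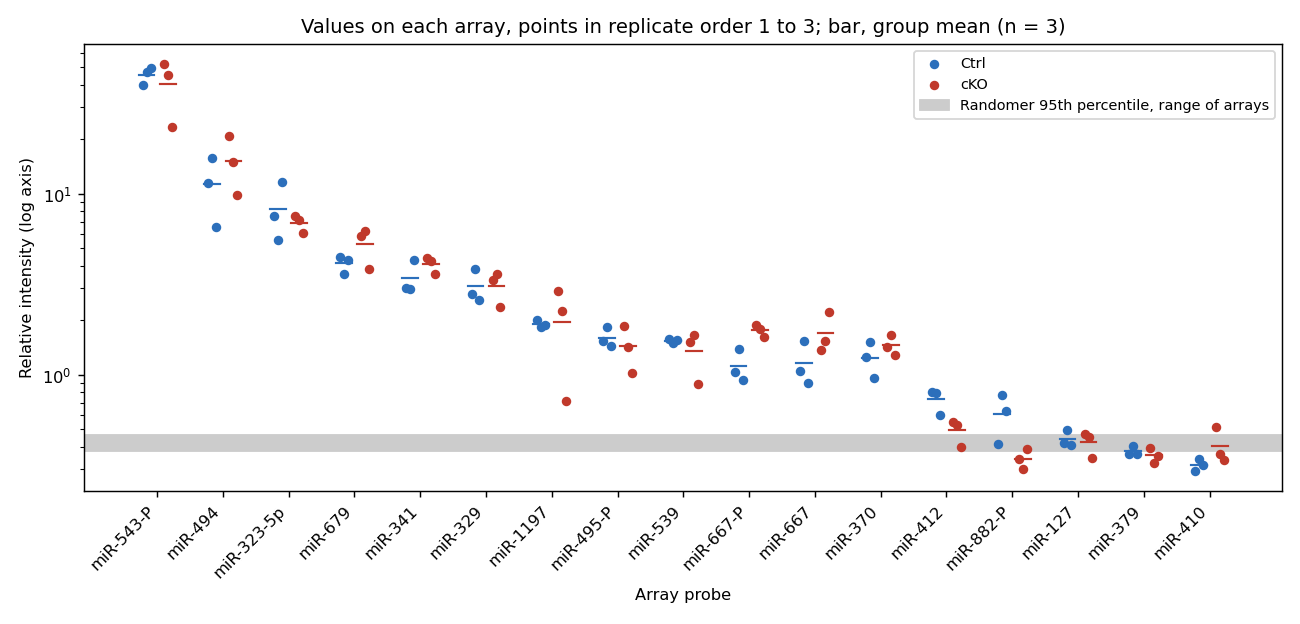
Relative intensity (log axis) of 17 cluster probes on each array, Ctrl in blue and cKO in red, points in replicate order and bars at the group mean (n = 3). The grey band is the range of the Randomer 95th percentile. The groups separate for miR-667-P, miR-412 and miR-882-P, and miR-127, miR-379 and miR-410 lie around the band.

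One array set much of the spread within the cKO group. Of the 23 cluster probes above background on all arrays, cKO replicate 3 was the lowest cKO array for 22 (95.7%), against 56.8% of the 440 mouse probes above background on all arrays. It was the lowest of all 6 arrays for 12. Its median deviation from the group mean over the 23 probes was -0.32 on the log2 scale, and -0.16 over the 440. The exception was miR-667, where cKO replicate 3 was highest. In the Ctrl group replicate 3 was lowest for 15 of the 23 (65.2%), against 41.1% of the 440, so both number 3 arrays were low for these probes.

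With all arrays 12 of the 23 probes were higher in cKO and 11 lower, with a median difference of 0.012. Quantile normalization gave 5 higher and 18 lower (median -0.29), and snoRNA and GAPDH scaling 1 higher and 22 lower (median -0.56). Without Ctrl replicate 3, 11 were higher and 12 lower. Without cKO replicate 3, 19 were higher and 4 lower, the median was 0.198, and 2 cluster probes passed as higher, miR-667-P and miR-410 (limma adjusted p = 0.0488 for miR-410), against 11.4% of all mouse probes in that fit. miR-543-P then differed by 0.10 in place of -0.25. The array was not low throughout: miR-223 read 20.7, 24.1 and 38.2 on the cKO arrays, highest on replicate 3, against 15.1 to 16.4 in Ctrl. Whether cells, RNA or labelling set that array apart was not tested.

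**Figure D4:**
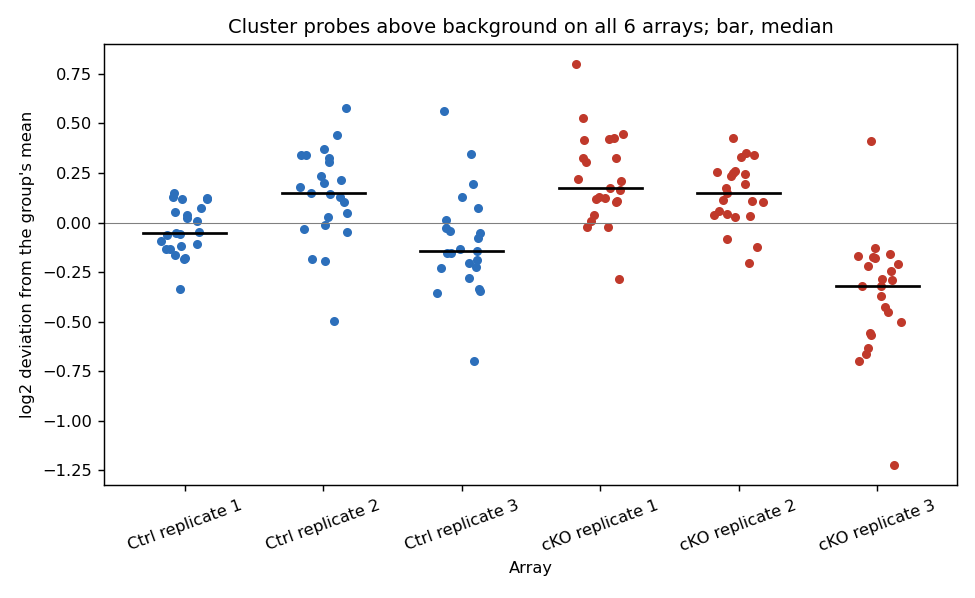
Log2 deviation from the group's mean of the 23 cluster probes above background on all 6 arrays, by array, with the median as a bar. On cKO replicate 3 all points but that of miR-667 lie under 0, and the median is -0.32.

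The arrays also hold human-named probes for the same miRNA numbers, 92 of 1738 human-named probes tested. In a separate limma fit over those 1738 none of the 92 passed, 0 higher and 0 lower, against 1.9% higher and 0.115% lower over all of them. At an unadjusted p under 0.05, 4 of the 92 were higher and 1 lower, against 10.2% and 2.3% of the 1738. Of 65 pairs of a mouse-named and a human-named probe with one name, 10 were above background on all arrays for both, 7 for the mouse probe alone, 6 for the human probe alone and 42 for neither. These probes were read on the same 6 arrays and are not separate samples.

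The human-named miR-543-P probe was the highest value on all 6 arrays, taken as the scanner limit, so its differences are not read as measured. Of the other 9 pairs above background on all arrays for both probes, 4 differed between cKO and Ctrl with the same sign and 5 with opposite signs (miR-410-P, miR-668, miR-543, miR-382 and miR-487b). The mouse-named and human-named probes differed by 0.03 ± 0.27 and -0.07 ± 0.16 for miR-668, and by -0.16 ± 0.26 and 0.33 ± 0.22 for miR-543. No probe of the 9 pairs passed the test, so the signs alone do not show that probes agree or disagree. Among the 4, the human-named miR-494 probe read 9.06, 7.68 and 3.87 in cKO and 5.60, 6.36 and 2.55 in Ctrl (0.52 ± 0.42), and the human-named miR-323-5p probe differed by -0.39 ± 0.36. For miR-412, whose human-named probe was above background on 5 arrays, the sign was also opposite: the human-named probe read 0.860, 0.843 and 0.673 in cKO and 0.697, 0.722 and 0.431 in Ctrl (0.39 ± 0.21, limma adjusted p = 0.517). The human-named miR-539 and miR-370 probes were above background on 1 and 2 arrays, while their mouse-named partners were above on all 6.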

How the data were processed

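Total RNA (5 µg) of 6 mice was reverse transcribed with a biotinylated random octamer, bound by streptavidin-Alexa647 and scanned, per the labels' protocols. The authors deposited one table of relative intensity values; the sources used here do not give image software, background correction or normalization. For each array 1 constant (829 to 987.5) was chosen to bring its highest value to 65535, taken as the scanner limit. Multiplied by it, at least 99.97% of the deposited intensity values are multiples of 0.25 (tolerance 0.01). No further scaling was applied. Log2 of the values was fitted with limma 3.58.1 in R 4.3.3 (lmFit, eBayes with intensity trend, two-sided, Benjamini-Hochberg over the probes of the fit, adjusted p under 0.05), on mouse-named probes and, apart, on human-named probes without snoRNA. The fit was tested on simulated data. Figures used Python 3.11.15 and matplotlib 3.10.9.

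Each group holds 3 arrays from 3 mice, and their number limits the precision. Same-numbered mice correlated weakly in their deviations from the group means (0.10, 0.12 and 0.18). Mice with different numbers correlated between -0.21 and 0.11, the highest being cKO replicate 2 with Ctrl replicate 1. The numbers were treated as pairs in a block alternative, but the labels say only that the mice were littermates. Whether same-numbered mice are true pairs is therefore not known. Members and lists were chosen with earlier results of these data known. Named probes are those past the test, the 12 highest means, the 5 largest differences per direction among probes above background on all arrays, those of miR-127, miR-379 and miR-410, and those of miR-376, the one number with more than 2 probes; other probes were named after their values were seen. Alternatives were other scalings, floors, filters, no trend, background levels and leaving out each array. Sequences and positions are RefSeq's (GRCm38.p6).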

Additional observations from a re-analysis of the deposited data

How the results depend on the processing

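The count of cluster probes lower in cKO, 1 in the reported fit, was 2 with median centring, with quantile normalization and with the replicate block (miR-882-P and miR-412 there), and 39 with snoRNA and GAPDH scaling. It was 0 with a floor at background or no intensity trend, and 0 to 1 when 1 array was left out. The count was also 0 with a floor at 1, probes above background alone or no -P probes, but those settings left miR-882-P out before the fit. The count higher in cKO, 0 as reported, was 1 with Randomer scaling (miR-1193-P) and 1 of 18 tested with a floor at 1, and 0 to 2 when 1 array was left out. The median difference was -0.58 with snoRNA and GAPDH scaling, 0.11 with a floor at 1, and -0.057 to 0.053 without 1 array. snoRNA and GAPDH scaling moved the median of all mouse probes to -0.54, and 35 of them then passed as higher. The scaling rests on 6 probes: human-named probes of snoRNA U44 and U48, Human GAPDH and Mouse GAPDH. Of these, only Mouse GAPDH is mouse-named. Of 23 probes above background on all arrays, 7 exceeded the highest Randomer probe and 17 the mean plus 2 SD, 46 of all cluster probes exceeded the median, and 23 to 27 were above with 1 array left out. Over 30 named probes and 438 values, none reversed a call, 5 lost it, 17 gained it, and 35 changed sign without a call. The replicate block changed no other named call. With 46 probes above background on no array, intensity over background limits what could be seen.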

Other observations

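Some mouse-named probes of miRNAs in the same domain fall outside the list of numbers. miR-1188-P read 6.06, 4.41 and 3.34 in cKO and 2.76, 3.86 and 2.92 in Ctrl, above background on all arrays (0.51 ± 0.31, limma adjusted p = 0.497). miR-3072 read 1.22, 1.16 and 1.28 in cKO and 0.801, 1.00 and 0.638 in Ctrl, with no overlap (0.61 ± 0.21, limma adjusted p = 0.129). miR-369-3p, miR-369-5p and miR-1906 were above background on no array, and miR-432-P was above on all with a difference of -0.13 ± 0.20. None of these 10 probes passed the test.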
